A study of Mus musculus with 11 samples.

Results

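The genes described here are the mouse protease inhibitors of the Wfdc, Spink and Serpina families, taken as every row of the deposited expression table whose name starts with Wfdc, Spink or Serpina followed by a digit. This rule found 56 of the 37583 genes in the table: 16 Wfdc, 12 Spink and 28 Serpina genes. RNA was sequenced from EGFP+ CX3CR1+ mononuclear phagocytes, a class that holds macrophages, dendritic cells and monocytes, sorted from the epididymis, the duct in which sperm mature. All mice were 12 weeks old and carried the CX3CR1 EGFP +/- genotype, in which EGFP is driven by the gene of the fractalkine receptor, so that EGFP marks any cell using that gene. The 11 libraries fall into 3 regions: the initial segments (IS, 4 libraries), the caput/corpus (3) and the cauda (4), the last stretch, where sperm are stored. Each library pooled 4 epididymides after a double sort, and the labels do not tie libraries to animals, so p-values measure the spread between these pools. The series title asks how expression in these cells differs with their place in the epididymis.

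WFDC proteins carry WAP domains, small cores held by disulfide bonds, of which some block serine proteases and some kill bacteria. SPINK proteins carry Kazal domains, which sit in the active site of trypsin-like enzymes as a substrate that is released only slowly. Serpins of clade A, the family of alpha-1-antitrypsin, are cut by their target protease and trap it in the act. In the epididymis, epithelial cells are known to secrete many inhibitors of all 3 families into the lumen, where they coat sperm.

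Promoters from RefSeq (build GRCm38.p6) were on hand for 31 of the 55 distinct member names. Of these and their relatives, 5 stretches of 300 bases are shown, each from 250 bases before the gene's start to 50 after it. They belong to genes whose levels differed between regions and which are described below. Wfdc8 and Wfdc10 are the 2 with their highest mean in the IS among the members that passed the low-count filter. Serpina1f and Serpina16 are adjacent serpins with at most 1 read in the IS, and Wfdc17 is the most abundant gene of these families. Capitals mark exact matches, on either strand, to AGAACA or TATAAA. The first is the hexamer that steroid receptors such as the androgen receptor bind, and the second holds the letters of the TATA box. A search for GAGGAAGT, a site of the macrophage factor PU.1, found no match in these 5.
Wfdc8, chr2:164613577-164613876, minus strand: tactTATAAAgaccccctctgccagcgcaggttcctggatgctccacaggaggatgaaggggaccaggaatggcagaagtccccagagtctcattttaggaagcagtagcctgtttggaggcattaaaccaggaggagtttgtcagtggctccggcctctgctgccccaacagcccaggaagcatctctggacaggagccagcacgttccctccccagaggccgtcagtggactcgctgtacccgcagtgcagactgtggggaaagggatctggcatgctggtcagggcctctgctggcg
Wfdc10, chr2:164655796-164656095, plus strand: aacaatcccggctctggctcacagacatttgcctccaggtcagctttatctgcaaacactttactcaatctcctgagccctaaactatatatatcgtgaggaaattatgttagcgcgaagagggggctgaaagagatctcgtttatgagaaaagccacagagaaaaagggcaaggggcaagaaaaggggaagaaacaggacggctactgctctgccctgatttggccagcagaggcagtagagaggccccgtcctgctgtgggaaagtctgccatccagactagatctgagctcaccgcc
Serpina1f, chr12:103695480-103695779, minus strand: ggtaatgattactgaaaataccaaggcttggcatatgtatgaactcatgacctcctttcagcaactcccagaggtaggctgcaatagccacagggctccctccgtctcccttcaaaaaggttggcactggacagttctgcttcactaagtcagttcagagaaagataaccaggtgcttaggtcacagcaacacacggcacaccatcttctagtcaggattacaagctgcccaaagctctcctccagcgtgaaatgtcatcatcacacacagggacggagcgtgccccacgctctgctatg
Serpina16, chr12:103676713-103677012, minus strand: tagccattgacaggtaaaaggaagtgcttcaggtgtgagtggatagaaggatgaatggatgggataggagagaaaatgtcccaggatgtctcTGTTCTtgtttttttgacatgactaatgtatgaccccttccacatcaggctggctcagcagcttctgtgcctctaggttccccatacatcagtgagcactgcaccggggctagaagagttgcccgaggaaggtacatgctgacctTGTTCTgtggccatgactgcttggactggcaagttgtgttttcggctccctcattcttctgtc
Wfdc17, chr11:83703806-83704105, plus strand: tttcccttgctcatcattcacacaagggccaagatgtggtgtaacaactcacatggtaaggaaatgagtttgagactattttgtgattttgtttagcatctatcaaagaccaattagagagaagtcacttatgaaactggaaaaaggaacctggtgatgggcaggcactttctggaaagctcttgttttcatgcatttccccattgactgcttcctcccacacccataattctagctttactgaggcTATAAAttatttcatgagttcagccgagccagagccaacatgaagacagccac
Serpina16 held 2 matches to the hexamer, and Wfdc8 and Wfdc17 held 1 match to TATAAA each. The Wfdc8 match lay at -246 to -241 from the start, at the far end of the window. The Wfdc17 match lay at -3 to 2, across the start. Serpina1f and Wfdc10 held none of the 3 motifs. Of the 31 members with an entry, 16 held AGAACA or its complement, against 19.0% of 27025 promoters of the same length. Most were copies in 2 groups of related genes: Serpina1a to Serpina1e, and Serpina3a, Serpina3b, Serpina3c, Serpina3f, Serpina3i, Serpina3j and Serpina3n. Of the 16, Serpina1a to Serpina1e, Serpina3a, Serpina3b, Serpina3j and Serpina5 had no read in any library. The called members Serpina1f, Wfdc8 and Wfdc10 held no match. TATAAA was in 6 of 31 at any position, against 14.2% of all promoters, and GAGGAAGT was in 0 of 31, against 3.28%. At a share of 3.28%, 0 matches in so few windows cannot show that the site is lacking. Other forms of the site were not searched. The 3 motifs do not overlap one another, and a match is only a match of letters in this window.

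The libraries held 16873180 to 31737132 reads on genes. In 3 of the 11 (cauda replicate 1, IS replicate 2 and caput/corpus replicate 1), the reads of the count file differed from those of the named column of the expression table. The count file of caput/corpus replicate 1 held the reads of the IS replicate 2 column. That of cauda replicate 1 held the reads of the caput/corpus replicate 1 column. Counts as filed, given below as an alternative, therefore place these reads in another region. In both files, the number in the name is the one that opens the name of the matching column. Values here are the reads of the named column, and each call is also given from the 8 libraries in which both sources agree. Cauda replicate 1 stood apart, and it is the library whose column matched no count file. It had a read on 13434 genes against 17053 to 18837 in the others. The 10 macrophage and phagocyte markers, among them Lyz2, C1qa and Csf1r, summed to 14920 to 20223 CPM in every library (counts scaled by TMM to a common library size of 1e+06 reads), so the sorted cell type was present in each. Single markers differed between regions: 8 of the 10 were called, 6 higher in the IS than in the cauda and 2 higher in the cauda. Lyz2 averaged 7101, 9988 and 11133 CPM in the IS, caput/corpus and cauda, and Cx3cr1 788, 419 and 312. Genes of other cells were read too. The 32 genes of an epididymal epithelium list summed to 1870 to 4239 CPM in the IS, 511 to 912 in the caput/corpus and 17.8 to 56.6 in the cauda, with 17.8 in cauda replicate 1. None of the 32 was at 0 throughout, and 23 were called in at least 1 comparison. The 9 mast cell markers summed to 43.4 to 128 CPM in the IS, 786 to 1141 in the caput/corpus and 1150 to 4302 in the cauda. Stroma, muscle and endothelium markers (9 genes, none at 0 throughout) spanned 32.3 to 425 CPM in the IS, 58.5 to 400 in the caput/corpus and 16.9 to 84.7 in the cauda. The 7 lymphocyte markers summed to at most 62.8 CPM, the 8 sperm and germ cell markers to at most 7.95, with Acr at 0, and the 8 neutrophil markers to at most 2.96, with S100a9 and Ly6g at 0. Of 6 hepatocyte and plasma protein genes, Apoa1, Ttr, Fgb and Ahsg had no read. The part of these other cells in the results that follow was not tested.

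Of the 56 members, 32 had at least 1 read (57.1%, against 63.3% of all genes) and 24 had none. The 22 that passed the low-count filter (39.3%, against 40.2% of all genes) were 10 Wfdc, 6 Spink and 6 Serpina genes. Most members at 0 were serpins. These 19 were Serpina1a, Serpina1b, Serpina1c, Serpina1d and Serpina1e, the antitrypsin genes of the liver, with Serpina3a, Serpina3b, Serpina3d-ps, Serpina3j, Serpina3k, Serpina3l-ps, Serpina4-ps1, Serpina5, Serpina6, Serpina7, Serpina9, Serpina10, Serpina11 and Serpina12. Spink3, Spink7, Wfdc5, Wfdc12 and the second of 2 genes named Wfdc3 (ENSMUSG00000039951) were also at 0. Over all libraries, 0 reads allow a level of up to 0.0113 CPM, which covers counting error only. Reads that align to several genes were counted for none of them, so the near-identical Serpina1 and Serpina3 copies may be undercounted. Members with reads that did not pass were Wfdc2 (57 reads), Spink13 (43), Serpina3h (22), the other Wfdc3 (17, all in the caput/corpus), Spink14 (12, all in the cauda), Serpina3m (10, all in the caput/corpus), Wfdc15a (6), Spink4 (6), Serpina3e-ps (5) and Spink6 (1).

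Summed over the 56 members, replicates 1 to 4 of the IS reached 53.9, 148, 64.7 and 53.5 CPM. Those of the caput/corpus reached 240, 200 and 175 CPM, and those of the cauda 15.5, 47.1, 45.9 and 46.3 CPM; values per library are given in this order throughout. Every caput/corpus library was thus above every other library, and every cauda library below every IS library. Spink8 and Spink11 held a large part of the caput/corpus sums, at means of 56.3 and 32.5 CPM there against 5.53 and 0.186 in the IS. The lead of the caput/corpus in these sums thus rests in part on these genes and is not a trait of all members. The mean over libraries was highest in the caput/corpus for 19 of the 22 members that passed, in the IS for 2 (Wfdc8 and Wfdc10) and in the cauda for 1 (Wfdc1). The same share over all genes was not computed. The filter works by region, so a gene could pass through its caput/corpus libraries alone. The 19 of 22 is thus a count without a baseline. The families were spread differently. Spink genes summed to 82.3 to 134 CPM in the caput/corpus against 8.89 to 15.9 in the IS and 6.28 to 15.7 in the cauda. Wfdc genes summed to 39.4 to 72.3 CPM in the caput/corpus and 27.5 to 96.5 in the IS, which overlap, and to 9.16 to 17.1 in the cauda. Serpina genes spanned 26.7 to 54.7, 11.5 to 35.5 and 0.0710 to 22.2 CPM in the caput/corpus, IS and cauda. In bulk libraries, fewer cells that make a transcript and less transcript per cell cannot be told apart. The sum of the epithelium list was highest in the IS, but its genes did not share 1 order: 21 of the 32 had their highest mean in the IS, 10 in the caput/corpus and 1 in the cauda. Among the 10, Lcn5, an epididymal lipocalin, averaged 1.32 ± 0.5 CPM in the IS, 66.6 ± 29.9 in the caput/corpus and 0.0449 ± 0.0368 in the cauda, and Rnase9 averaged 0.173 ± 0.287, 25.9 ± 7.94 and 0.232 ± 0.463 CPM. These 2 genes were picked after their values were seen, from a list in which most genes had their highest mean in the IS. The part of epithelial cells in the levels of the members was not tested.

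**Figure D1:**
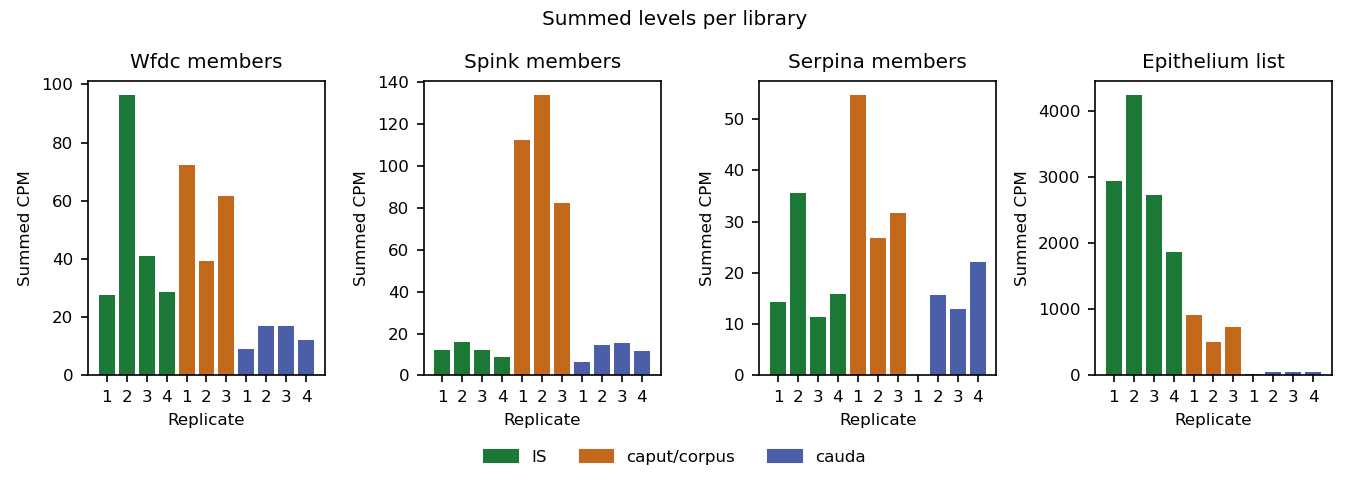
Summed CPM (vertical axes, each from 0) per library for the Wfdc, Spink and Serpina members and for the 32 genes of the epithelium list, with bars coloured by region and numbered by replicate. The 3 caput/corpus bars of the Spink members (82.3 to 134 CPM) stand above all others, while the 4 IS bars of the epithelium list (1870 to 4239 CPM) stand above all others.

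**Figure D2:**
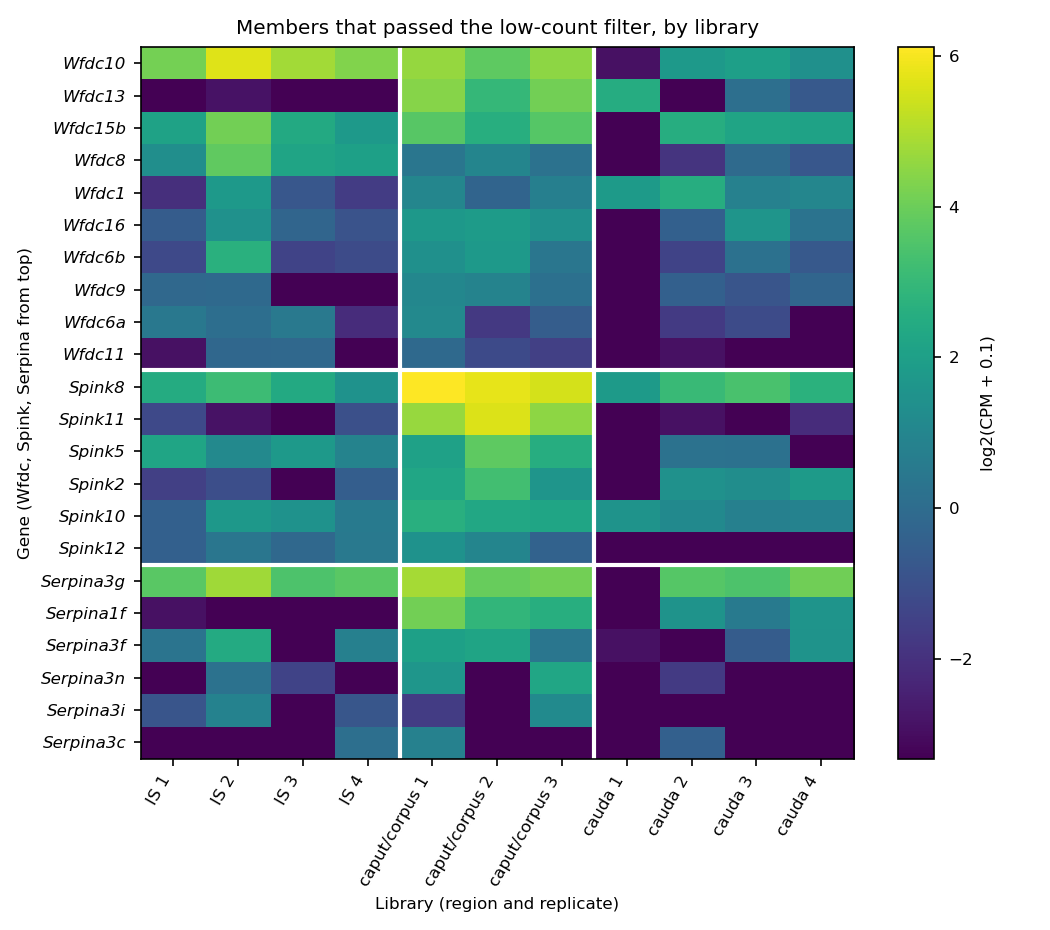
Level of each of the 22 members that passed the filter (rows, grouped as Wfdc, Spink and Serpina) in each of the 11 libraries (columns, by region and replicate), coloured by log2(CPM + 0.1). Dark cells are at or near 0: 16 of the 22 members had no read in cauda replicate 1, and IS replicate 2 was the highest IS library for 14 of 22.

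Per base of gene length, Wfdc10 led the members in the IS at a mean of 40.6 RPKM, followed by Wfdc15b (10.6) and Spink8 (7.05). In the caput/corpus Spink8 led at 71.3 RPKM, before Spink11 (43.7) and Wfdc10 (28.4). In the cauda Spink8 led again, at 9.10 RPKM, before Wfdc15b (5.18) and Serpina3g (4.21).

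The IS and the caput/corpus differed in 4 of the 22 members tested, all higher in the caput/corpus: Spink8, Spink11, Serpina1f and Wfdc13. Of all 15116 genes tested with edgeR, 3.78% were called at an adjusted p under 0.05, and 2.98% as higher in the caput/corpus. The median log2 difference, IS minus caput/corpus, was -0.94 over the members and 0.02 over all genes. In 8 of the 22 the regions did not overlap, against 14.4% of all genes. The 8 libraries without a conflict gave the same 4 calls. The counts as filed, which place reads of named columns in another region, gave 0, with 3 members at an unadjusted p under 0.05. Within the title series Maj4 the same 4 were called, and within Maj3, which has 1 caput/corpus library, 0 (3 at an unadjusted p under 0.05). In every comparison, the share of all genes called is given only for the full fit and the fit without cauda replicate 1. Under the other settings a count of 0 has no such share beside it and is no result about the members. Leaving out IS replicate 3 left 2 calls, Spink8 and Spink11. Leaving out cauda replicate 1 added Spink2 for 5 calls, with 9.02% of all genes called.

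The IS and the cauda differed in 5 of the 22 members, against 16.5% of all genes. Wfdc8, Wfdc10 and Spink12 were higher in the IS (7.4% of all genes were) and Serpina1f and Wfdc13 higher in the cauda (9.06% of all genes were). The median log2 difference, IS minus cauda, was 1.66 over the members and 0.05 over all genes, and without cauda replicate 1 it was 0.61 over the members, with 6 calls (20.8% of all genes), Spink2 being added. In 4 of 22 the regions did not overlap, against 18.7% of all genes. The 8 libraries without a conflict added Wfdc1 for 6 calls, higher in the cauda. The counts as filed gave 0, with 3 members at an unadjusted p under 0.05. Maj4 alone gave 3 calls and Maj3 alone 0 (4 at an unadjusted p under 0.05). Leaving out IS replicate 1 or cauda replicate 4 kept 3 of the 5 calls, and leaving out IS replicate 3 kept 2. Leaving out IS replicate 2 kept 2, Serpina1f and Spink12, and added Wfdc1.

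The cauda and the caput/corpus differed in 3 of the 22 members, Spink8, Spink11 and Spink12, all higher in the caput/corpus. Across all genes 0.615% were called, and 0.582% as higher in the caput/corpus. The median log2 difference, cauda minus caput/corpus, was -2.38 over the members and -0.02 over all genes, and in 13 of 22 the regions did not overlap, against 9.64% of all genes. Without cauda replicate 1 there were 5 calls (1.37% of all genes), Wfdc10 and Wfdc13 being added. The 8 libraries without a conflict called Spink8, Spink11 and Wfdc10, Maj4 alone called only Spink11, and Maj3 alone and the counts as filed called 0 (4 and 5 at an unadjusted p under 0.05). Leaving out caput/corpus replicate 1 ended all 3 calls, with 8 members at an unadjusted p under 0.05, and leaving out cauda replicate 4 left 1.

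Spink8 (ENSMUSG00000050074), a Kazal inhibitor known from the epididymis, was read at 69.3, 54.6 and 45.1 CPM in the caput/corpus libraries. The IS libraries held 5.56, 8.71, 5.18 and 2.68 CPM and the cauda libraries 3.48, 8.43, 10.4 and 6.37. Every caput/corpus library was above all 8 others, and the IS and cauda overlapped. The log2 difference from the caput/corpus was -3.41 ± 0.45 (SE) for the IS (adjusted p = 0.00388, edgeR) and -2.98 ± 0.43 for the cauda (adjusted p = 0.0138). The first was called without any 1 library in turn. The second was lost without caput/corpus replicate 1 (adjusted p = 0.12) or cauda replicate 4 (0.0654). Within Maj4 and Maj3 the IS difference was -3.67 and -3.30, and the cauda difference -2.58 and -3.61.

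Spink11 (ENSMUSG00000073573), also a Kazal-type gene, was at 25.1, 49.6 and 22.8 CPM in the caput/corpus. It was at 0.318, 0.0376, 0 and 0.389 CPM in the IS and at 0, 0.0338, 0 and 0.132 in the cauda. Nearly all its reads came from the caput/corpus, with 2183 in 3 libraries against 19 in the 4 of the IS and 4 in the 4 of the cauda. The log2 difference was -7.25 ± 1.01 for the IS (adjusted p = 0.00484, edgeR) and -9.36 ± 1.14 for the cauda (adjusted p = 0.00509). Without IS replicate 1 or 4 the first became -7.90 and -7.85, and both stayed called. The second became -10.67 without cauda replicate 4, and without caput/corpus replicate 1 its adjusted p was 0.0501. Within Maj4 and Maj3 the IS difference was -7.39 and -7.13, and the cauda difference -8.83 and -10.25.

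Spink12 (ENSMUSG00000061144) was low but regular. The IS libraries held 0.637, 1.20, 0.809 and 1.30 CPM, the caput/corpus libraries 2.70, 1.84 and 0.679, and all 4 cauda libraries 0. Against a floor of 3 reads over the cauda libraries, it was at least 32.1-fold higher in the IS (adjusted p = 0.00464, edgeR) and at least 59.8-fold higher in the caput/corpus (adjusted p = 0.0343). The IS call held without any 1 library, while the caput/corpus call was lost without any 1 library other than cauda replicate 1, with adjusted p values of 0.0514 to 0.221. It was lost as well in the 8 libraries without a conflict (0.185). Within Maj4 and Maj3 neither was called, with IS adjusted p values of 0.0623 and 0.304 and caput/corpus values of 0.261 and 0.97. In this gene the cauda stood apart from both other regions, whereas Spink8 and Spink11 set the caput/corpus apart from both.

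The other 3 Spink genes that passed were not called. Spink2, which restrains the sperm protease acrosin, averaged 0.307 ± 0.252 CPM (SD, n = 4) in the IS, 5.75 ± 3.41 (n = 3) in the caput/corpus and 2.11 ± 1.48 (n = 4) in the cauda. Without cauda replicate 1 it was called as lower in the IS than in either other region. Spink5, whose product LEKTI inhibits skin kallikreins, averaged 2.92 ± 1.28, 7.76 ± 4.98 and 0.531 ± 0.614 CPM in the IS, caput/corpus and cauda. Spink10 averaged 1.96 ± 1.17, 5.23 ± 0.81 and 2.07 ± 0.539 CPM, with every caput/corpus library above the others. It had 2.80 CPM in cauda replicate 1, the library in which most members had no read.

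Wfdc10 (ENSMUSG00000070529) had the highest mean of the Wfdc members in the IS and the caput/corpus. The IS libraries held 17.4, 50.6, 27.6 and 19.99 CPM, the caput/corpus libraries 24.4, 13.7 and 22.8, and the cauda libraries 0.0355, 3.32, 3.94 and 2.55. The IS and the caput/corpus overlapped, and both lay above every cauda library. The log2 difference, IS minus cauda, was 3.56 ± 0.87 (adjusted p = 0.0192, edgeR), with 2.89 in Maj4 and 4.37 in Maj3. It was no longer called without IS replicate 2, IS replicate 3 or cauda replicate 4 (adjusted p of 0.0533, 0.0516 and 0.0551). Against the caput/corpus the cauda was lower by a log2 value of -3.06 ± 0.87, which edgeR did not call (adjusted p = 0.185). It was called by edgeR without cauda replicate 1 or in the 8 libraries without a conflict, and over all 11 libraries by DESeq2 and by limma on log2(RPKM + 1).

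Wfdc8 (ENSMUSG00000070533), whose product joins WAP domains to a Kunitz domain, another kind of protease inhibitor fold, was at 2.41, 13.8, 4.43 and 3.97 CPM in the IS. It was at 1.20, 1.84 and 1.07 CPM in the caput/corpus and at 0, 0.169, 0.869 and 0.483 in the cauda. The 3 regions did not overlap, and their order ran from the IS down to the cauda. The log2 difference, IS minus cauda, was 4.34 ± 1.16 (adjusted p = 0.0289, edgeR). It was 2.64 in Maj4 and 6.54 in Maj3, and became 3.40 without IS replicate 2 (adjusted p = 0.0603) and 3.64 without cauda replicate 1 (0.0124). Leaving out IS replicate 3, cauda replicate 2 or cauda replicate 4 also ended the call (0.0526, 0.0866 and 0.0688). IS minus caput/corpus was 2.38 ± 1.15 and was not called (adjusted p = 0.382). In GENCODE M21, exons of Wfdc8 overlap those of Wfdc6b on the opposite strand, and counting did not use strand, so reads from the shared stretch cannot be told apart.

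Wfdc13 (ENSMUSG00000067704), from the same gene cluster, was near 0 in the IS and highest in the caput/corpus. Its 4 IS libraries held 0, 0.0376, 0 and 0 CPM, a single read in all, and its caput/corpus libraries 21.2, 7.62 and 17.3 CPM. The cauda libraries held 5.71, 0, 0.985 and 0.527 CPM, and 5.71 belonged to cauda replicate 1, where most other members were at 0. The caput/corpus held 1096 reads against 1 in the IS, a ratio of 1542 with a 95% exact counting interval of 276 to 60974 (adjusted p = 0.0108, edgeR). The cauda held 190 against 1, a ratio of 188 with an interval of 33.3 to 7453 (adjusted p = 0.018). The fitted log2 difference, IS minus cauda, was -6.88, and -4.76 without cauda replicate 1 (adjusted p = 0.0419). Limma on log2(RPKM + 1) and log2(RPKM + 0.1) did not call it (adjusted p of 0.159 and 0.0675). The fitted value was -8.16 without IS replicate 2, which holds the single read (adjusted p = 0.0828), and the call was also lost without IS replicate 1 or 3 (0.0654 and 0.0534). For the caput/corpus the fitted -10.48 became -11.73 without IS replicate 2 (0.0659), and the call was lost without IS replicate 3 (0.0502). Within Maj4 and Maj3 the fitted values were -11.00 and -9.88 against the caput/corpus and -6.95 and -6.88 against the cauda.

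Wfdc15b (ENSMUSG00000018211) was read at 4.21, 17.0, 5.29 and 3.28 CPM in the IS, at 12.5, 5.87 and 12.3 in the caput/corpus and at 0, 5.82, 4.52 and 4.26 in the cauda. The IS overlapped both other regions, and no difference was called (adjusted p of 0.93, 0.634 and 0.678 for IS against caput/corpus, IS against cauda and cauda against caput/corpus, edgeR). IS minus cauda was 0.91 ± 1.09 on the log2 scale.

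The other 6 Wfdc genes that passed were low and were not called. Wfdc1, a WAP protein known from stromal cells, averaged 1.02 ± 1.48 CPM in the IS, 1.41 ± 0.608 in the caput/corpus and 3.2 ± 1.91 in the cauda. Wfdc16 averaged 1.10, 3.08 and 1.16 CPM in the same order, and Wfdc6b 1.78, 2.35 and 0.460. Wfdc6a averaged 0.919, 0.952 and 0.138 CPM, Wfdc9 0.410, 1.58 and 0.463, and Wfdc11 0.408, 0.474 and 0.00846. Wfdc11 thus had 1 read in the whole cauda against 37 in the IS, a ratio of 37.5 with a 95% exact counting interval of 6.32 to 1519 (adjusted p = 0.071, edgeR).

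Serpina1f (ENSMUSG00000021081), a relative of alpha-1-antitrypsin, was at 17.0, 7.28 and 6.02 CPM in the caput/corpus. It was at 0.0354, 0, 0 and 0 CPM in the IS, a single read, and at 0, 2.78, 1.33 and 2.86 in the cauda. All 3 caput/corpus libraries were above all cauda libraries, and 3 of 4 cauda libraries above every IS library. The ratio of reads was 1040 for the caput/corpus over the IS (739 reads against 1, 95% exact counting interval 186 to 41131, adjusted p = 0.0131, edgeR). It was 168 for the cauda over the IS (170 against 1, interval 29.7 to 6672, adjusted p = 0.0135). Without IS replicate 1, which holds the single read, neither was called (0.0848 and 0.0598), and the fitted log2 values moved from -9.41 to -10.86 and from -6.94 to -8.36. The caput/corpus call was lost as well without caput/corpus replicate 1 (-8.69, adjusted p = 0.0571) or IS replicate 3 (0.0604). Without cauda replicate 1 the cauda value was -7.55 and stayed called, whereas limma on log2(RPKM + 1) and log2(RPKM + 0.1) did not call it (adjusted p of 0.162 and 0.0535). Within Maj4 and Maj3 the fitted values were -10.09 and -9.59 against the caput/corpus and -8.43 and -5.93 against the cauda. The 5 antitrypsin genes Serpina1a to Serpina1e had no read in any library.

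Serpina3g (ENSMUSG00000041481), an intracellular serpin of leukocytes known to inhibit cathepsins, was read in all 3 regions. The IS libraries held 12.8, 27.0, 11.0 and 12.8 CPM, the caput/corpus libraries 28.4, 14.9 and 17.0, and the cauda libraries 0, 12.1, 11.1 and 16.6. Apart from cauda replicate 1, which had no read, all 3 regions overlapped. The log2 difference was -0.35 ± 1.08 for IS minus caput/corpus, 0.65 ± 1.04 for IS minus cauda and -1.0 ± 1.08 for cauda minus caput/corpus, and none was called (adjusted p of 0.96, 0.729 and 0.794, edgeR). These errors leave room for a difference of a log2 unit or more either way between the IS and the others. Of the other serpins that passed, Serpina3f averaged 2.05, 3.25 and 0.846 CPM in the IS, caput/corpus and cauda, and Serpina3n, an inhibitor of granzyme B and elastase, 0.340, 2.58 and 0.0508. Serpina3i averaged 0.666, 0.801 and 0 CPM, and Serpina3c 0.248, 0.559 and 0.161. None of these 4 was called, and Serpina3c rested on 1 library in each region.

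**Figure D3:**
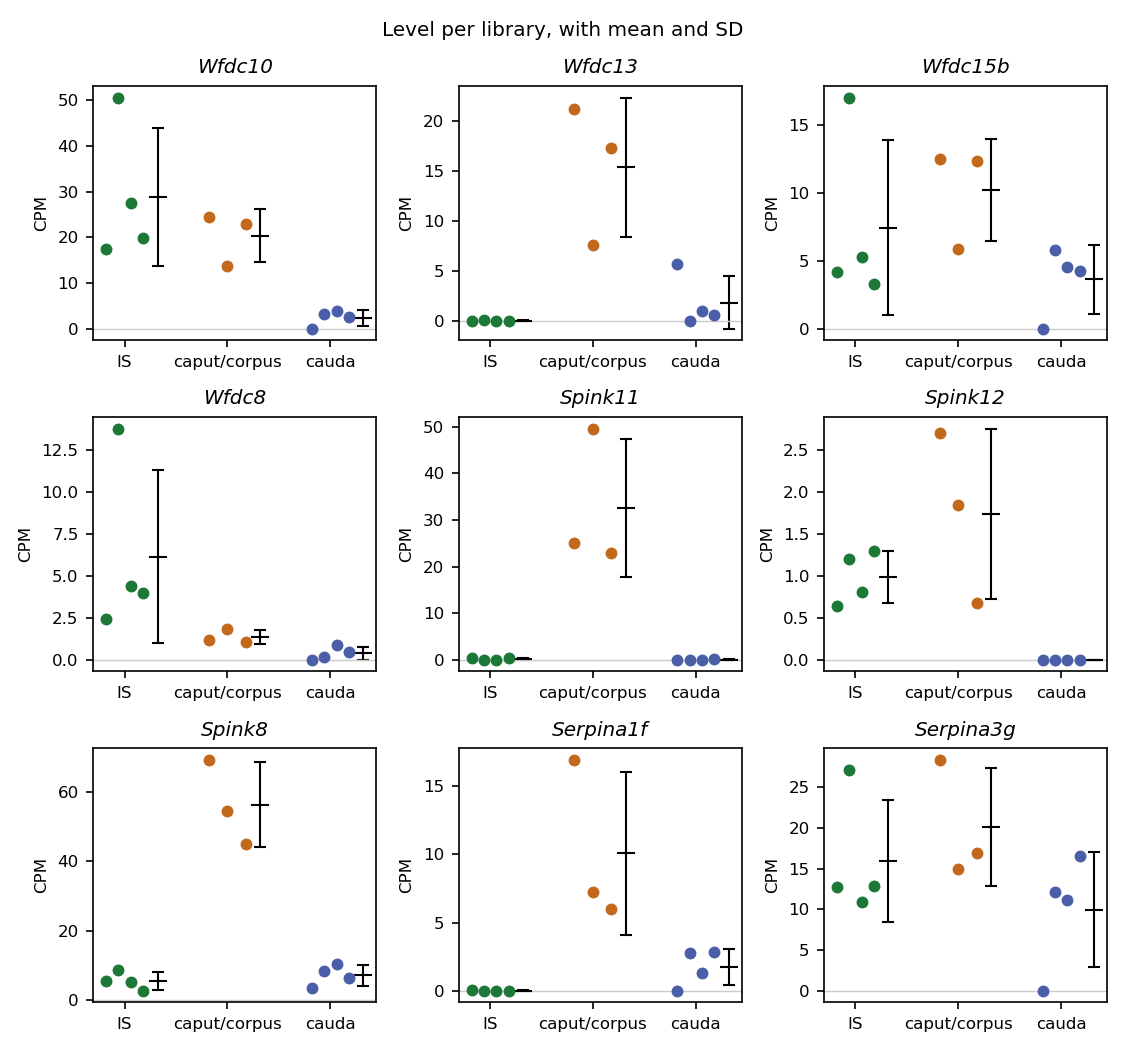
CPM (vertical axes, linear) per library for the 9 members with a call or with a mean of at least 10 CPM in a region, with 4 IS, 3 caput/corpus and 4 cauda points and, beside them, the mean with its SD. Spink8 (45.1 to 69.3 CPM) and Spink11 (22.8 to 49.6) stand out in the caput/corpus, Wfdc13 and Serpina1f have 1 read each in the IS, and Spink12 lies at 0 in the cauda.

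The place of these genes on the chromosome was then set beside their levels, an ordering taken from RefSeq on GRCm38.p6 after the levels were known. In the main Wfdc cluster the protein-coding genes run Wfdc2, Spint3, Wfdc6a, Eppin, Wfdc8, Wfdc6b, Wfdc16, Wfdc9, Wfdc10, Wfdc11, Wfdc13, Spint4, Spint5, Wfdc3 and Dnttip1. The 4 neighbours Wfdc13, Spint4, Spint5 and Wfdc3 had 1, 0, 0 and 0 reads in the 4 IS libraries, and 1096, 295, 82 and 17 in the 3 caput/corpus libraries. In the cauda, Spint4, Spint5 and Wfdc3 had no read and Wfdc13 had 190. The next gene, Dnttip1, a subunit of a histone deacetylase complex, averaged 32.5, 31.5 and 44.6 CPM in the IS, caput/corpus and cauda. Eppin, which carries a WAP and a Kunitz domain and coats sperm, and its neighbour Wfdc8 were instead highest in the IS, at 6.71 ± 1.37 CPM for Eppin against 2.13 ± 1.68 in the caput/corpus and 0.106 ± 0.138 in the cauda. Wfdc10, with its highest mean in the IS, and Wfdc13, with a single read there, are separated by 1 gene, Wfdc11.

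**Figure D4:**
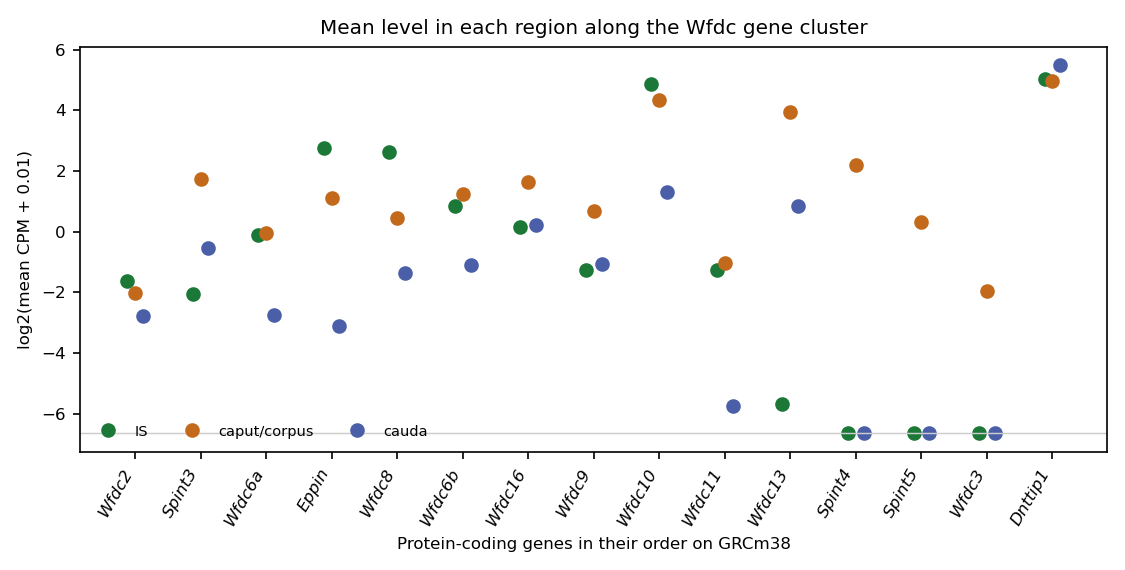
Mean level in each region, as log2(mean CPM + 0.01), of 15 protein-coding genes in their order along the Wfdc cluster on GRCm38 (horizontal axis, rank and not distance), with 1 point per region. The grey line is a level of 0: Spint4, Spint5 and Wfdc3 lie on it in the IS and cauda, while their caput/corpus means were 4.58, 1.23 and 0.251 CPM.

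The serpin cluster showed such a pair as well. Serpina16 (ENSMUSG00000071179), listed under the name Gm46 and so outside the rule, lies next to Serpina1f. It had no read in the IS, 4.82, 3.11 and 2.86 CPM in the caput/corpus, and 0, 1.73, 0.753 and 2.42 CPM in the cauda, the order of regions seen in Serpina1f. It was at least 39.2-fold higher in the cauda than in the IS (adjusted p = 0.0324, edgeR), a call kept in 1 of the 11 fits that leave out a library, that without cauda replicate 1. The caput/corpus was at least 119.6-fold above the IS but was not called (adjusted p = 0.0517). On either side, Serpina6 and the run Serpina1b, Serpina1d, Serpina1a, Serpina1c, Serpina1e and Serpina11 had no read in any library. These 2 adjacent serpins were thus the ones with reads in a stretch of 9 genes.

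Wfdc17 (ENSMUSG00000069792), known as a WAP protein of activated macrophages and microglia and listed as Gm11428, was the most abundant gene of these families per base of length, at means of 283, 626 and 797 RPKM in the IS, caput/corpus and cauda. The IS libraries held 160, 159, 125 and 155 CPM, the caput/corpus libraries 345, 352 and 302, and the cauda libraries 415, 532, 347 and 397. Every IS library was below every other library, and cauda replicate 1 was within the range of its region. The log2 difference was -1.19 ± 0.13 for IS minus caput/corpus (adjusted p = 0.00225, edgeR) and -1.49 ± 0.12 for IS minus cauda (adjusted p = 7.78e-05), both called in all 11 fits that leave out a library. Cauda minus caput/corpus was 0.30 ± 0.13 and was not called (adjusted p = 0.402). Wfdc18 (listed as Expi) averaged 1.02, 2.28 and 2.94 CPM in the IS, caput/corpus and cauda and was not called, and Wfdc21 (listed as 1100001G20Rik) had 5 reads in all.

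The wider inhibitor system was counted from lists. Over all 15116 genes tested, 16.7% were called in at least 1 comparison, and the counts of each list stand against that share. Of 11 other WAP and Kunitz inhibitors, 8 were tested and 3 were called. Eppin and Spint1, a membrane Kunitz inhibitor of epithelial proteases, were higher in the IS than in the cauda, by log2 values of 5.95 ± 1.13 (adjusted p = 0.00554, edgeR) and 4.17 ± 0.98 (adjusted p = 0.016). Spint4 was higher in the caput/corpus than in the IS (adjusted p = 0.0417), a call kept in 3 of 11 fits that leave out a library. The Spint1 call was lost without cauda replicate 4. Spint1 averaged 108 ± 11.7, 28.5 ± 26.1 and 5.96 ± 4.98 CPM in the IS, caput/corpus and cauda.

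Of 21 serpins of other clades, 15 were tested and 5 were called. Only 4 of the 5 are described, so their directions are no count over the list. Serpinb1a, an inhibitor of neutrophil elastase and related granule proteases, averaged 7.21 ± 2.74, 37.3 ± 8.49 and 86.6 ± 63.6 CPM in the IS, caput/corpus and cauda, and was lower in the IS than in both (adjusted p of 0.00642 and 0.000269, edgeR). Serpinb10 averaged 4.46, 14.6 and 19.4 CPM and was likewise lower in the IS (adjusted p of 0.021 and 0.00231), the first lost in 5 of 11 fits that leave out a library (without IS replicates 1, 3 or 4 or caput/corpus replicates 2 or 3). Serpinf1 was higher in the IS than in the cauda (adjusted p = 0.0349) and Serpini1 lower (0.0474), calls kept in 5 and 1 of the 11 fits. Among 30 serine proteases that such inhibitors bind, or relatives of them, 14 were tested and 10 were called: 5 lower in the IS than in the caput/corpus, and 7 lower and 3 higher in the IS than in the cauda. Between cauda and caput/corpus edgeR called 0 of the 14 (3 at an unadjusted p under 0.05) and DESeq2 called 2. The 2 highest were the mast cell proteases Tpsb2, a tryptase at 23.8 ± 17.5, 323 ± 73.0 and 692 ± 477 CPM in the IS, caput/corpus and cauda, and Cma1, a chymase at 17.3 ± 9.30, 238 ± 33.2 and 503 ± 401 CPM. Both also belong to the mast cell marker list given above, as do Mcpt4 and Tpsab1 among these proteases. The protease counts thus repeat part of the mast cell result. The proteases Plg, Prss1, Klk5, Klk6, Klk7, Klk10, Klk11, Klk14, Tmprss11d and Acr had no read.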

How the data were processed

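Members and gene lists were chosen with earlier results of these data known. The labels name a PicoRNA kit for extraction, the SMARTer v4 kit for libraries and a HiSeq2500 sequencer. The submitters' processing notes name STAR, HTSeq, edgeR and build mm9, without versions. The deposited count files hold whole, unstranded read counts per gene. The deposited table holds RPKM, which the authors scaled by gene length and library size. Multiplied by gene length, each RPKM column was a whole multiple of 1 step (tolerance 0.001), which gave the reads behind it. In 8 of 11 libraries these equalled the count file filed under the sample, and 10 of 11 read sets equalled some count file, that of cauda replicate 1 being the exception. The reads of the named column were used, and replicates were numbered in accession order. Between 12.5% and 35.8% of reads were not uniquely aligned and 7.75% to 24.8% fell on no gene; both were left out.

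The edgeR quasi-likelihood test (edgeR 4.0.16, R 4.3.3) was fitted to all 11 libraries with TMM, filterByExpr by region and the title series (Maj3, 5 libraries, or Maj4, 6) as covariate. This kept 15116 genes. Adjusted p is Benjamini-Hochberg over them within a comparison, called under 0.05, and SE is derived from the F statistic. CPM uses TMM library sizes. Folds against a group without reads use a floor of 3 pooled reads; where a group holds 1 to 3, the ratio of pooled counts is given instead. Intervals and floors cover counting error only. Every library value and full statistics are given for members called or with a mean of at least 10 CPM in a region, and region means for the others that passed. Of the other inhibitor and protease lists, the 2 highest and, where no more than 6 were called, the called genes could be named. The neighbours along the chromosome and the genes under other names were named after their values were seen. DESeq2 1.42.0 and limma 3.58.1 on log2(RPKM + pseudocount of 1 or 0.1) were alternatives. Apart from the promoter windows no coordinates are given, because the annotation here (GRCm38) is of another build. The values of 1 called serpin of another clade are not reported here.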

Additional observations from a re-analysis of the deposited data

Results flagged for a closer look

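Among 42 groups of 4 libraries (IS or cauda, for the members that passed), 11 held a library far from the other 3. Chance gives about 1 in 20 for spread values, but in 6 of the 11 the other 3 libraries were all at 0, so that any read in 1 library sets it apart; that rate does not hold for these. IS replicate 2 accounted for 6 of these: Serpina3g at 27.0 CPM, Wfdc15b at 17.0, Wfdc6b at 6.2, Wfdc1 at 3.23, Wfdc16 at 2.63 and Wfdc13 at 0.0376, the last a single read. Its highest neighbours among the IS libraries were at 12.8, 5.29, 0.345, 0.486, 0.755 and 0 CPM. In the same library the epithelium list summed to 4239 CPM, against 1870 to 2930 in the other IS libraries. Its stroma, muscle and endothelium list summed to 425 CPM, against 32.3 to 140. The part of either in the 6 values was not tested. IS replicate 1 held the single read of Serpina1f (0.0354 CPM), and IS replicate 4 all IS reads of Serpina3c (0.993 CPM). Cauda replicate 2 held all cauda reads of Serpina3c (0.643 CPM), Serpina3n (0.203 CPM) and Wfdc11 (0.0338 CPM).

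The count file filed under IS replicate 2 holds reads that match no column of the expression table and were used in no main value. The other Maj3 count files matched columns whose names open with the number in the file's name. No column name opens with the number of this file, so whether its reads come from the IS is not certain. In it, 22 members had more than 3 reads, the largest counts being 2292 for Spink8, 976 for Wfdc13, 697 for Serpina3g, 639 for Wfdc10, 372 for Spink11, 333 for Wfdc15b and 239 for Serpina1f, of 30383072 reads on genes. The 4 IS columns together held 547, 1, 1581, 2812, 19, 746 and 1 reads for these genes. The 3 caput/corpus columns together held 3954, 1096, 1436, 1424, 2183, 717 and 739.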

How the results depend on the processing

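The 12 member calls were recomputed under 21 other settings each, 252 values in all: 188 kept the call, 64 kept the direction but lost it, and 0 reversed. DESeq2, no low-count filter and no title series kept all 12. The number of members called for IS against caput/corpus, IS against cauda and cauda against caput/corpus (4, 5 and 3) was 0, 0 and 0 with counts as filed and in Maj3 alone. Counts as filed place reads of named columns in another region, so they are not a second measure of the same groups. Maj4 alone gave 3 for IS against cauda and 1 for cauda against caput/corpus, and limma on log2(RPKM + 1) gave 6 for cauda against caput/corpus. Limma with either pseudocount ended the IS against cauda calls of Serpina1f and Wfdc13; on this scale folds of low genes are understated. Leaving out each library gave ranges of 2 to 5, 2 to 6 and 0 to 5. With 3 or 4 libraries a group and members of a few CPM, a single library decided many calls, and differences of low members may lie below what this depth shows.

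With the replicate block (label number within title series) the counts were 3, 5 and 2: Serpina1f between IS and caput/corpus had an adjusted p of 0.0533 and Spink12 between cauda and caput/corpus 0.145, by edgeR. Deviations of libraries with the same number correlated at 0.079, 0.042, 0.038 and -0.043. Each region held a single pair of libraries within a series here, so their deviations mirror each other. This check therefore cannot show whether the numbers mark shared pools. The numbers were not taken to pair the libraries in the main fit, and whether they share animals is not known.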
